A study of Mus musculus with 16 samples.

Results

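Chemokines are small secreted proteins that steer leukocytes by binding G protein-coupled receptors, and activated T cells make several of them. Ccl3, Ccl4 and Ccl5 encode CC chemokines that draw monocytes and T cells, through receptors that include Ccr1 and Ccr3. Xcl1 encodes lymphotactin, which binds Xcr1 on cross-presenting dendritic cells, and Cxcl10 encodes an interferon-inducible CXC chemokine that binds Cxcr3 on T cells and natural killer (NK) cells. These 5 genes were described in 6 groups of arrays as the chemokine genes that T cells make. They were chosen by symbol, as every probe set of the table annotated to 1 of the 5. Each gene had 1 probe set and none shared a probe set with another gene, so all 5 were measured among 17097 genes in all.

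The cells were naive T cells sorted from wild-type and Tsc1-deficient mice on a C57BL/6 background. Tsc1 is a subunit of the complex that restrains the growth-promoting kinase complex mTORC1. CD4 cells of both genotypes were taken unstimulated (0 h) or cultured for 4 h with immobilised antibodies to CD3 and CD28, which mimic engagement of the T cell receptor and its costimulator, with 3 arrays in each of these 4 groups. CD8 cells of both genotypes were taken unstimulated, with 2 arrays each. The labels give neither age, the deleted allele nor the promoter of any Cre, and 1 sentence of their treatment text names a HIF1a-deficient strain, whereas the genotype entries and titles name Tsc1. They do not tell whether arrays of a group stem from different mice, so p-values gauge array-to-array spread that could be technical, and the small number of arrays limits the precision.

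Signals are log2 values with a table median of 3.36, and a signal near or under that median may be background. Differences are given on the log2 scale with their standard error (±), and a gene is called at an adjusted p under 0.05 in limma, adjusted over all 17097 genes of a comparison. The median difference of all genes lay within 0.02 of 0 in each of the 9 comparisons. Tsc1 itself was lower in the deficient groups, with 6.48 against 7.31 in unstimulated CD4 cells, 6.39 against 7.46 in stimulated CD4 cells and 6.38 against 6.93 in CD8 cells. Cd8a was higher by 5.09 and Cd4 lower by 4.60 in wild-type CD8 than CD4 cells, the direction their labels give. Replicate arrays correlated at 0.987 to 0.996. On 2 arrays, replicate 1 of the stimulated deficient CD4 cells and replicate 2 of the deficient CD8 cells, a control for RNA quality, the gap between 3′ and 5′ Gapdh probe sets, was 0.96 and 0.64, against 0.02 to 0.40 on the others, and results that change without both are given with and without them. In sorted populations measured in bulk, fewer cells making a transcript and less transcript per cell cannot be told apart.

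RefSeq (mouse build GRCm38.p6) held no matched promoter for Ccl4 or Ccl5. The promoters found there for 3 of the 5 genes, which all rose with stimulation as described next, are shown. Each is the run of 250 bases that ends at the gene's start, read 5′ to 3′ on the minus strand, at chr5:92348890-92349139 for Cxcl10, chr11:83649379-83649628 for Ccl3 and chr1:164935523-164935772 for Xcl1. Capitals mark matches, on either strand, to 3 motifs, namely a kB motif of the NF-kB family (GGGNNNTTCC), an interferon response core (GAAANNGAAA) and an AP-1 motif (TGANTCA).
Cxcl10: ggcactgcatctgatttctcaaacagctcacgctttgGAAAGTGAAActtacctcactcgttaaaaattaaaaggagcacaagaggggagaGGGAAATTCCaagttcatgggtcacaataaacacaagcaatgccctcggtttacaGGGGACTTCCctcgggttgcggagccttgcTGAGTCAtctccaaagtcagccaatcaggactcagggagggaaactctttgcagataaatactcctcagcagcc
Ccl3: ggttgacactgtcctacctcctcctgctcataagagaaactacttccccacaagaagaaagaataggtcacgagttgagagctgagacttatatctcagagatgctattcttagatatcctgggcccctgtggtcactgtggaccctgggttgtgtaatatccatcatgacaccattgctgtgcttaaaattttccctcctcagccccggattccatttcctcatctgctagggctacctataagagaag
Xcl1: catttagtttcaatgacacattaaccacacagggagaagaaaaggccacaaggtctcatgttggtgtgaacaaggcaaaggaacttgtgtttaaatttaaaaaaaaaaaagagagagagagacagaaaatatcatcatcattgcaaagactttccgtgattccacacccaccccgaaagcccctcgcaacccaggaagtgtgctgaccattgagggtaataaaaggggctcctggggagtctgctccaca
The Cxcl10 window held the interferon response core 213 to 204 bases upstream of the start, kB motifs at 159 to 150 and at 104 to 95 bases upstream, and an AP-1 motif at 74 to 68 bases upstream, none overlapping another. The Ccl3 and Xcl1 windows held no match to any of the 3, which says only that these letters do not occur there. Among all 32851 promoters of that length, 4.65% held the kB motif, 2.98% the interferon response core, 6.75% the AP-1 motif and 0.0122% all 3. The motifs were chosen with the sequences in view, so these shares describe the windows and test nothing.

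Stimulation for 4 h raised 4 of the 5 chemokine genes in CD4 cells of both genotypes, and Ccl5 was the exception. Over all genes, 31.9% were called in wild-type cells (12.8% higher) and 35.3% in deficient cells (13.8% higher). The rise of Cxcl10 was 28.2-fold in wild-type and 94.9-fold in deficient cells, from a base under the table median on 2 of 3 arrays of each genotype, that of Xcl1 12.7-fold and 9.07-fold, that of Ccl3 11.2-fold and 13.9-fold, and that of Ccl4 9.19-fold and 11.2-fold. Ranked among all genes by the size of the rise, each of these 4 sat at the 99.9th percentile or higher in both genotypes. The arrays of the 2 times did not overlap for any of the 4, which held for a higher signal at 4 h in 19.9% of all genes in wild-type and 17.8% in deficient cells.

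Ccl3, known as MIP-1 alpha, had signals of 2.42, 2.79 and 2.87 on the unstimulated wild-type CD4 arrays and 5.98, 6.08 and 6.47 on the stimulated ones. On the deficient arrays its signals were 3.03, 3.19 and 3.50 unstimulated and 6.75, 6.99 and 7.37 stimulated. All stimulated arrays lay above all unstimulated ones, and all unstimulated wild-type arrays lay under the table median. The rise was 3.49 ± 0.20 in wild-type cells (adjusted p = 6.02e-10 in limma) and 3.80 ± 0.20 in deficient cells (adjusted p = 2.28e-10 in limma).

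Ccl4, or MIP-1 beta, the close relative of Ccl3 encoded beside it on chromosome 11, had signals of 3.69, 3.78 and 4.19 on unstimulated and 6.72, 6.88 and 7.65 on stimulated wild-type arrays. The deficient arrays read 3.59, 4.20 and 4.36 unstimulated and 7.48, 7.55 and 7.59 stimulated. The stimulated arrays were again all higher, and the 3 deficient ones lay close together (SD 0.06). Its rise was 3.20 ± 0.23 in wild-type cells (adjusted p = 8.63e-09) and 3.49 ± 0.23 in deficient cells (adjusted p = 2.45e-09).

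Xcl1 had signals of 3.72, 3.89 and 4.03 on unstimulated wild-type arrays and 7.0002, 7.57 and 8.09 on stimulated ones. On deficient arrays they were 3.52, 3.56 and 3.67 unstimulated and 6.55, 6.71 and 7.02 stimulated. The times did not overlap in either genotype, and the rise was 3.67 ± 0.21 in wild-type cells (adjusted p = 7.67e-10) and 3.18 ± 0.21 in deficient cells (adjusted p = 3.21e-09).

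Cxcl10, also called IP-10, read 3.16, 3.26 and 4.03 on unstimulated and 7.67, 8.19 and 9.04 on stimulated wild-type arrays. In deficient cells it read 3.03, 3.08 and 3.46 unstimulated and 9.03, 9.71 and 10.54 stimulated. Its SD over the stimulated arrays, 0.69 in wild-type and 0.75 in deficient cells, exceeded that of each of the other 4 genes there. The rise was 4.82 ± 0.37 in wild-type cells (adjusted p = 2.22e-08) and 6.57 ± 0.37 in deficient cells (adjusted p = 5.31e-10).

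Ccl5, or RANTES, a chemokine kept at high level by effector and memory T cells, lay far above the table median on all 16 arrays. It read 7.74, 7.94 and 8.27 on unstimulated and 7.30, 7.47 and 7.61 on stimulated wild-type CD4 arrays, and 8.37, 8.69 and 8.87 unstimulated and 8.22, 8.31 and 8.59 stimulated on the deficient ones. The stimulated wild-type arrays all lay under the unstimulated ones, as for 25.4% of all genes, while the deficient arrays overlapped. The difference was -0.52 ± 0.20 in wild-type cells (adjusted p = 0.0526 in limma) and -0.27 ± 0.20 in deficient cells (adjusted p = 0.344), neither of which passed the test. The wild-type difference sat at the threshold, and passed it in 6 of the 16 fits with an array left out and under 7 of 12 other alternatives. Among these were the fits without wild-type unstimulated replicate 2 (-0.65, adjusted p = 0.034) and without the 2 arrays of high Gapdh difference (-0.52, adjusted p = 0.0212).

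**Figure D1:**
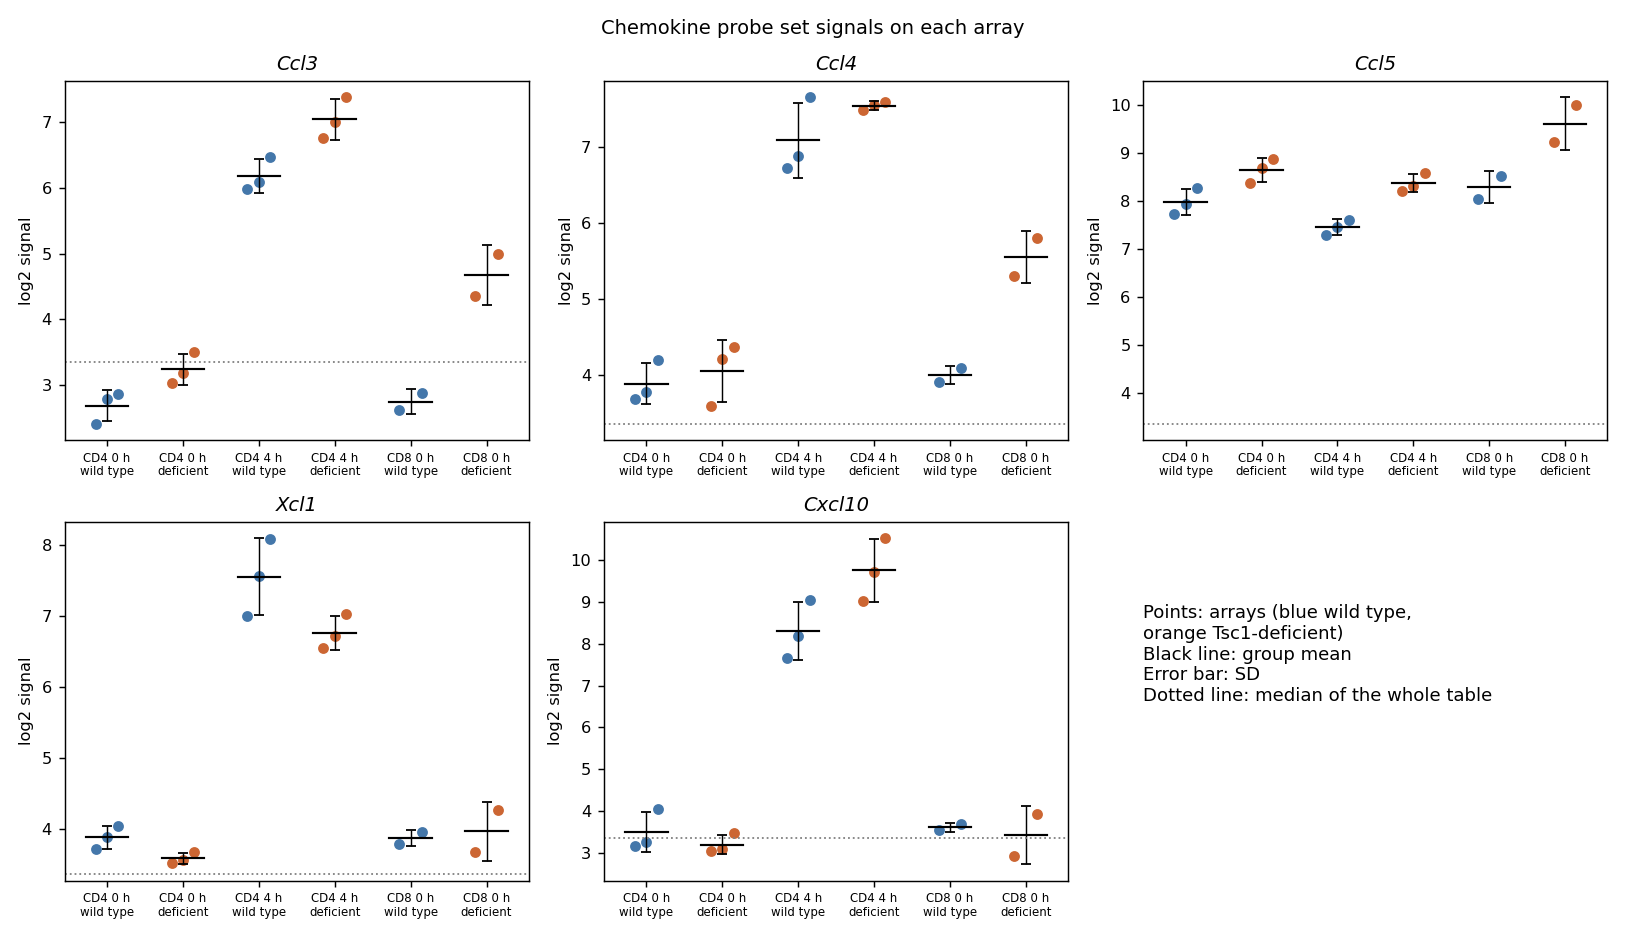
Log2 signal of each of the 5 chemokine probe sets on each of the 16 arrays (points) in the 6 groups, with group means (lines), SD (bars) and the table median of 3.36 (dotted line). Ccl3, Ccl4, Xcl1 and Cxcl10 rise at 4 h in CD4 cells of both genotypes, while Ccl5 stays between 7.30 and 10.001 on every array.

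The rises of the 2 genotypes were compared directly as the difference between their stimulation responses. None of the 5 genes was called for it by limma, against 1.2% of all genes, and only Cxcl10 had an unadjusted p under 0.05. The Cxcl10 response differed by 1.75 ± 0.52, deficient minus wild type (95% confidence interval 0.65 to 2.85, adjusted p = 0.144 in limma). Without the 2 arrays of high Gapdh difference this became 2.11 and passed the test (adjusted p = 0.0429). Since the unstimulated signals of Cxcl10 lay near the table median in both genotypes, both rises and this difference may depend on the floor of the signal. The Xcl1 response differed by -0.49 ± 0.30 (interval -1.13 to 0.14, adjusted p = 0.567). The differences for Ccl3, Ccl4 and Ccl5 were 0.31, 0.29 and 0.25, with intervals that reached from -0.28 to 0.90, from -0.39 to 0.96 and from -0.34 to 0.84.

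In stimulated CD4 cells 3 of the 5 genes were higher and 1 was lower with Tsc1 deficiency, where 9.45% of all genes were called (5.59% higher and 3.86% lower). Ccl5 was 1.88-fold higher (0.91 ± 0.20, adjusted p = 0.00681 in limma), and its 3 deficient arrays, from 8.22 up, lay above its 3 wild-type arrays, which reached 7.61. Ccl3 was 1.81-fold higher (0.86 ± 0.20, adjusted p = 0.00978), also with no overlap, at 6.75 to 7.37 against 5.98 to 6.47. Such a separation upward was found in 12.7% of all genes. Without wild-type replicate 2 the Ccl3 difference was 0.76 and missed the threshold (adjusted p = 0.0537).

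Cxcl10 was 2.75-fold higher (1.46 ± 0.37, adjusted p = 0.0182), although the lowest deficient array, 9.03, lay just below the highest wild-type array, 9.04. That lowest array is the one with the Gapdh difference of 0.96. The call was lost without wild-type replicate 1 (1.40, adjusted p = 0.0652), deficient replicate 3 (1.07, adjusted p = 0.0786) or wild-type replicate 2 (1.14, adjusted p = 0.104). It was also lost when the variance prior followed intensity (adjusted p = 0.0583) or when the fit held the compared groups alone (adjusted p = 0.0771).

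Xcl1 went the other way, 1.73-fold lower in deficient cells (-0.79 ± 0.21, adjusted p = 0.0256), with an overlap between the highest deficient array, 7.02, and the lowest wild-type array, 7.0002. This call did not hold without wild-type replicate 1 (-0.52, adjusted p = 0.134) or 2 (-0.78, adjusted p = 0.0771), or without deficient replicate 2 (-0.68, adjusted p = 0.0947) or 3 (-0.77, adjusted p = 0.0607), nor with the compared groups alone (adjusted p = 0.113). Ccl4 was not called, at 0.45 ± 0.23 (interval -0.02 to 0.93, adjusted p = 0.263), and 1 wild-type array, at 7.65, exceeded all deficient ones. Without that array, wild-type replicate 1, the Ccl4 difference was 0.74 and passed the test (adjusted p = 0.0442). Against a threshold of 1.5-fold in place of 0, none of the 4 calls in stimulated cells was kept.

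In unstimulated CD4 cells none of the 5 genes was called for genotype by limma, against 5.83% of all genes, and 2 of them, Ccl3 and Ccl5, had an unadjusted p under 0.05. Ccl5 averaged 8.64 ± 0.25 with deficiency against 7.98 ± 0.27 without it (SD, n = 3), a difference of 0.66 ± 0.20 (adjusted p = 0.0628). Its arrays did not overlap, as for 16.5% of all genes in that direction. The Ccl5 difference passed the test without wild-type unstimulated replicate 1 (0.80, adjusted p = 0.046), without either deficient CD8 array (0.66, adjusted p = 0.0269), and without the 2 arrays of high Gapdh difference (0.66, adjusted p = 0.0212).

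Ccl3 averaged 3.24 with deficiency against 2.69 without it in unstimulated CD4 cells, with no overlap of arrays but a signal at or under the table median on all but 1 of them (0.55 ± 0.20, adjusted p = 0.13). Down-weighting noisier arrays moved that difference past the threshold (0.54, adjusted p = 0.0414). The differences of the other 3 genes were 0.17 ± 0.23 for Ccl4, -0.30 ± 0.21 for Xcl1 and -0.29 ± 0.37 for Cxcl10, with adjusted p from 0.541 to 0.797.

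Unstimulated CD8 cells gave the largest genotype differences in size for the 3 CC chemokines. Ccl3, Ccl4 and Ccl5 were called higher in deficient cells, where 5.82% of all genes were called (3.64% higher), and Xcl1 and Cxcl10 were not. Ccl3 read 2.62 and 2.88 on the wild-type arrays and 4.35 and 4.998 on the deficient arrays. That is 3.79-fold, or 1.92 ± 0.24 (adjusted p = 0.000153 in limma), and it passed in each fit with an array left out and against the 1.5-fold threshold.

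Ccl4 read 3.91 and 4.08 on the wild-type CD8 arrays against 5.30 and 5.79 on the deficient ones, 2.93-fold higher (1.55 ± 0.28, adjusted p = 0.00297). Ccl5 read 8.05 and 8.52 against 9.22 and 10.001, 2.51-fold higher (1.33 ± 0.24, adjusted p = 0.00339). For all 3 genes both deficient arrays exceeded both wild-type arrays, which held for 22.9% of all genes, and deficient replicate 2, the array with the Gapdh difference of 0.64, was the lower of the pair.

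Ccl5 missed the threshold in CD8 cells without wild-type replicate 1 (1.09, adjusted p = 0.0757), and with the compared groups alone (adjusted p = 0.0657), while leaving out a CD8 array leaves that arm 1 array, assumed to vary like the others. Neither Ccl4 nor Ccl5 passed against the 1.5-fold threshold (adjusted p = 0.267 and 0.535). Xcl1 read 3.79 and 3.95 on wild-type against 3.67 and 4.26 on deficient CD8 arrays (0.09 ± 0.26, interval -0.46 to 0.64). Cxcl10 read 3.53 and 3.68 against 2.92 and 3.91 (-0.19 ± 0.45, interval -1.14 to 0.77), and in both genes the deficient arrays lay on either side of the wild-type pair.

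**Figure D2:**
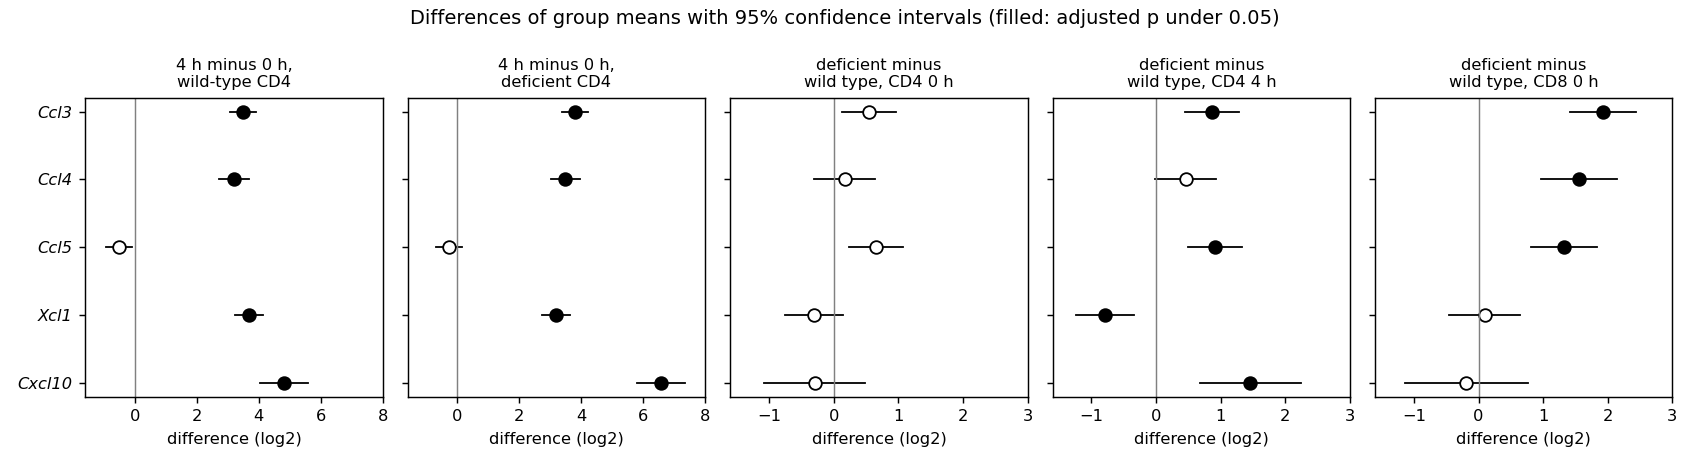
Difference of group means (points, log2 scale) of the 5 genes with 95% confidence intervals (bars) in the comparisons of stimulation and genotype, filled where limma's adjusted p was under 0.05. The genotype difference of Ccl3 is 0.55 in unstimulated CD4 cells, 0.86 in stimulated CD4 cells and 1.92 in CD8 cells, and that of Xcl1 is -0.79 in stimulated CD4 cells.

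Set against CD4 cells of their own genotype, wild-type CD8 cells did not stand apart for any of the 5 genes (adjusted p from 0.603 to 0.996 in limma, no unadjusted p under 0.05, 5.04% of all genes called). Deficient CD8 cells exceeded deficient CD4 cells in Ccl3 by 1.43 ± 0.22 (adjusted p = 0.000456), in Ccl4 by 1.497 ± 0.25 (adjusted p = 0.00119) and in Ccl5 by 0.97 ± 0.22 (adjusted p = 0.0121), where 6.68% of all genes were called (3.08% higher). The Ccl5 lineage difference was lost without deficient CD4 replicate 2 (0.83, adjusted p = 0.057) or deficient CD8 replicate 1 (0.58, adjusted p = 0.155), and with the compared groups alone (adjusted p = 0.0582). None of the 3 passed the 1.5-fold threshold.

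The genotype difference in CD8 cells minus that in unstimulated CD4 cells was 1.37 ± 0.31 for Ccl3 (adjusted p = 0.178 in limma), 1.38 ± 0.36 for Ccl4 (adjusted p = 0.287) and 0.67 ± 0.31 for Ccl5 (adjusted p = 0.641). None of the 5 was called, though these 3 had an unadjusted p under 0.05, in a comparison that called 0.117% of all genes. Without the 2 arrays of high Gapdh difference the Ccl3 value was 1.70 and passed (adjusted p = 0.0484). The genotype differences of the 2 lineages were therefore not shown to differ with all arrays in the fit.

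**Figure D3:**
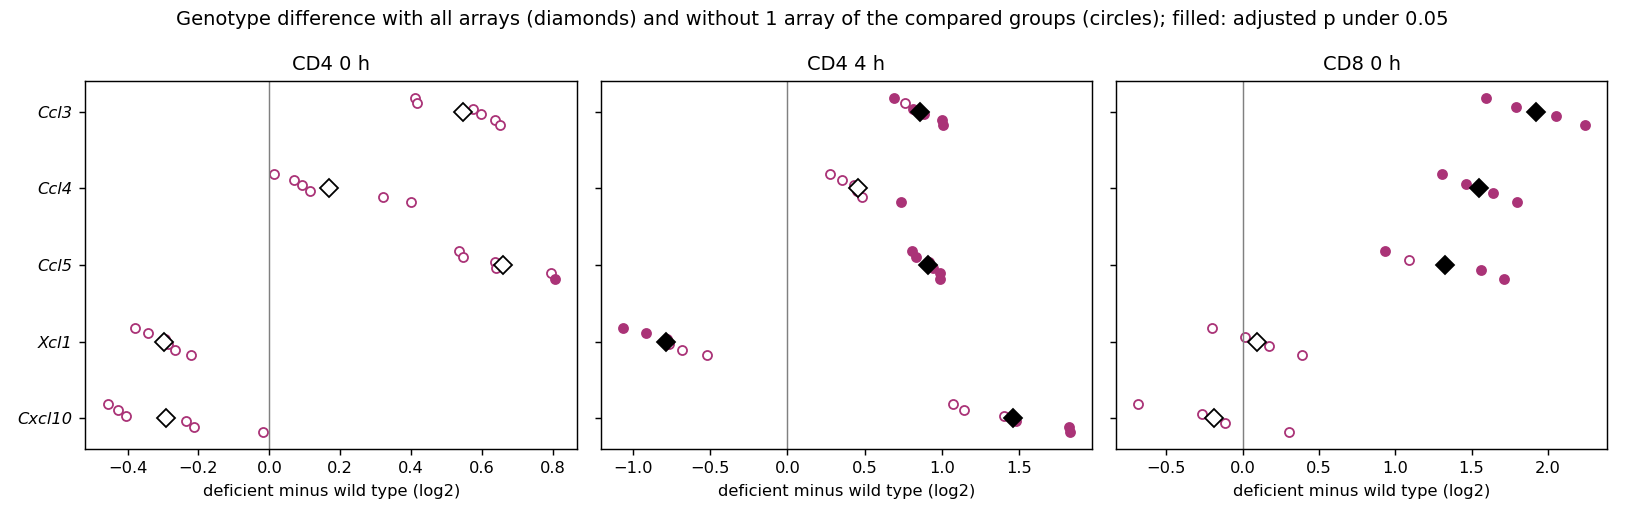
Deficient minus wild-type difference (log2) of each gene in the 3 conditions with all arrays (diamonds) and without 1 array of the compared groups (circles), filled where the adjusted p was under 0.05. In stimulated CD4 cells Cxcl10 ranges from 1.07 to 1.83 and Xcl1 from -1.06 to -0.52, and in CD8 cells Ccl3 stays filled from 1.60 to 2.24.

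Ordered by group mean, the genes fell into different patterns. Ccl3 was lowest in wild-type unstimulated cells of both lineages, whose arrays overlapped, and went up in separate steps through deficient CD4 cells (3.24), deficient CD8 cells (4.67), stimulated wild-type (6.18) and stimulated deficient CD4 cells (7.04). Ccl4 kept that order, but its 3 lowest groups overlapped with their neighbours, as did both stimulated groups. Xcl1 and Cxcl10 had a low set of all 4 unstimulated groups, from 3.58 to 3.96 and from 3.19 to 3.61, and a high set of both stimulated groups. Unstimulated groups next to each other overlapped for Cxcl10. For Xcl1, deficient CD4 cells had the lowest mean and overlapped deficient CD8 cells. Their highest array lay only 0.04 below the lowest wild-type CD4 array, and that genotype difference was not called (adjusted p = 0.541 in limma).

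Ccl5 was lowest in stimulated wild-type CD4 cells (7.46) and highest in deficient CD8 cells (9.61). The 4 groups between them overlapped with their neighbours from wild-type CD4 (7.98) to deficient CD4 (8.64). Over the 6 group means Ccl5 correlated with the other 4 genes at Pearson r from -0.55 to -0.12, and those 4 with each other at 0.887 to 0.995, figures that describe 6 points of shared arrays.

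Of 3541 genes that spanned at least 1 log2 unit and exceeded the table median in some group, the one most like Ccl3 over the 6 group means was Ccl4 (r = 0.995), followed by Ttll4, Spdl1, Npff and Ccdc171. Those most like Ccl4 were Ccl3, Ccdc171, Aar2, Npff and Tgfb1, the gene of the cytokine TGF-beta 1. Ccl5 was matched most closely by Bad, a pro-apoptotic member of the Bcl-2 family (r = 0.998), then Scpep1, Tcirg1, Incenp and Rad51ap1. Nearest to Xcl1 were Tmem258 (r = 0.999), Gfod1, Zmym5, Rgs16 and Camk2n1. Nearest to Cxcl10 were Timm8a2 (r = 0.998), Slc3a1, Errfi1, Lif and N4bp1. With 6 points and 3541 candidates such values are high for many genes and are only descriptions.

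Among 30 other chemokine ligands measured of 31 listed, few moved. Stimulation raised 2 and lowered 2 in wild-type cells, and raised 4 and lowered 2 in deficient cells, with medians of 0.03 and 0.07. Cxcl2, a neutrophil attractant, rose in both genotypes (1.44 ± 0.33 and 1.503 ± 0.33, adjusted p = 0.00219 and 0.00133), to 3.27 to 4.47 on stimulated wild-type arrays and 3.07 to 4.64 on deficient ones. Ccl6 fell in both (-1.03 and -1.19), and so did Ccl8, while Ccl27a rose in wild-type cells (0.49). The wild-type calls of Ccl8 and Ccl27a were lost in 3 and 4 of the 16 fits with an array left out, and that of Ccl27a also over averaged probe sets (0.157, adjusted p = 0.156 in limma).

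Between genotypes, no other ligand was called in unstimulated CD4 or CD8 cells, and 3 were higher and 1, Ccl8, lower in stimulated CD4 cells. Ccl1, which binds Ccr8, had group means of 3.53 in wild-type and 4.55 in deficient stimulated cells, 1.02 ± 0.18 apart (adjusted p = 0.0018), and rose with stimulation in deficient cells (1.51 ± 0.18, adjusted p = 3.84e-06) but was not called in wild-type cells (0.39 ± 0.18, adjusted p = 0.132). Cxcl9, another interferon-gamma-induced ligand of Cxcr3, read 2.97 to 3.82 on wild-type and 3.82 to 5.76 on deficient stimulated arrays (1.30 ± 0.36, adjusted p = 0.0312), and leaving out single arrays took it from 0.72 to 1.68 with loss of the call in 3 cases. Ccl9 was higher by 0.58 ± 0.14 (adjusted p = 0.0174), a call lost in 4 such fits.

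**Figure D4:**
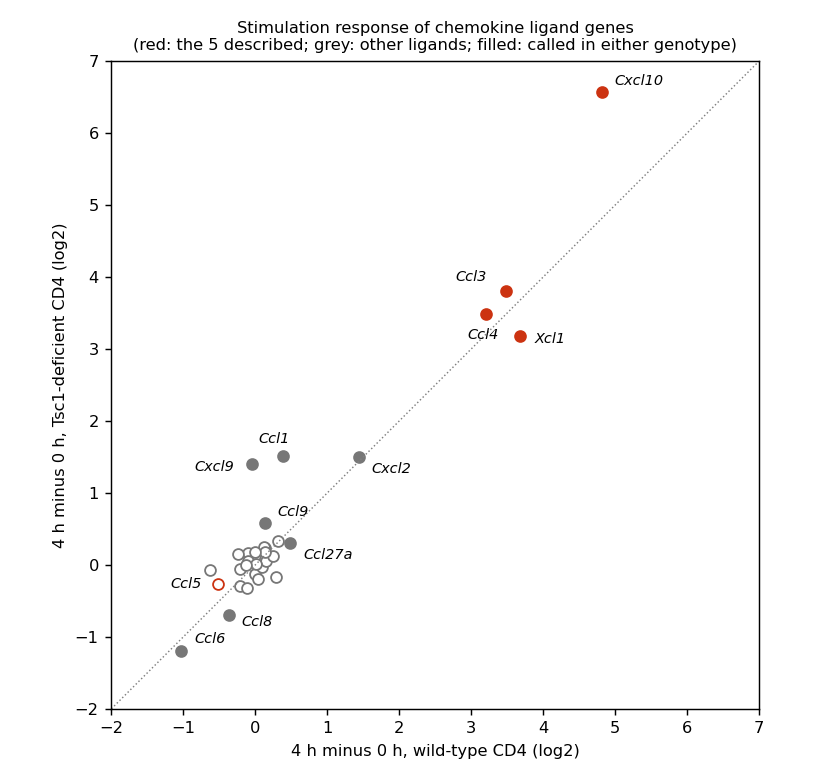
Stimulation response (4 h minus 0 h, log2) of the 5 chemokine genes (red) and 30 other chemokine ligand genes (grey) in wild-type (x axis) and Tsc1-deficient (y axis) CD4 cells, filled where called in either genotype, with the line of equal response dotted. Cxcl10, Ccl3, Ccl4 and Xcl1 lie above 3 on both axes and no other ligand exceeds 1.51 on either.

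Receptors for these chemokines described here are Ccr1, Ccr3, Xcr1 and Cxcr3. The first 3 lay below the table median on all 16 arrays, and none was called in any comparison. Cxcr3, the receptor of Cxcl10 and Cxcl9, was higher in deficient cells of all 3 conditions. Its means were 4.93 ± 0.12 and 6.15 ± 0.28 in unstimulated wild-type and deficient CD4 cells, 4.38 ± 0.19 and 5.66 ± 0.10 in stimulated ones (SD, n = 3), and 6.92 ± 0.06 and 8.47 ± 1.10 in CD8 cells (SD, n = 2).

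No deficient array overlapped a wild-type array of its condition for Cxcr3. The differences were 1.22 ± 0.26 (adjusted p = 0.00835), 1.27 ± 0.26 (adjusted p = 0.00421) and 1.55 ± 0.32 (adjusted p = 0.00728). In CD8 cells the deficient arrays read 7.69 and 9.24, the difference ran from 0.78 to 2.33 with single arrays left out, and the call was lost in 2 of those fits (adjusted p up to 0.0593). Cxcr3 was not called for stimulation in either genotype.

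Among 14 measured of 18 other chemokine receptors, 4 were higher in deficient stimulated CD4 cells and none lower. These were Ccr9, a gut-homing receptor (2.04 ± 0.19), the atypical receptor Ccrl2 (0.95 ± 0.14), Ccr2, the receptor of Ccl2 (0.78 ± 0.16), and the follicle-homing receptor Cxcr5 (0.65 ± 0.16). With the probe sets of a gene averaged, the stimulated differences of Ccr9 and Ccr2 were 0.82 and 0.51, still called, and the Cxcr5 call was lost in 2 of the 16 fits with an array left out. Ccr9 was also higher in unstimulated CD4 and CD8 cells, the latter call being lost in 3 such fits. In unstimulated CD4 cells Ccr2 was 0.59 higher, a call lost in 4 such fits and with probe sets averaged (0.28, adjusted p = 0.081 in limma).

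T cell receptor, interferon and NF-kB signals are known to drive chemokine transcription. Of 14 genes induced by T cell receptor signals, 13 rose with stimulation in both genotypes, led by the transcription factor Irf4 (6.51 and 5.09), the cytokine Il2 (5.01 and 4.40) and the nuclear receptor Nr4a3 (4.78 and 4.71). In stimulated cells Ifng, which encodes interferon-gamma, was 2.07 ± 0.23 higher in deficient cells (adjusted p = 2.89e-05), at 6.35 to 7.14 against 4.03 to 4.9999. Egr1 was lower (-0.87 ± 0.14). Il2ra was higher (0.69 ± 0.20) and Irf4 lower (-0.47 ± 0.14), calls that were lost in 8 and 7 of the 16 fits with an array left out, and the mean over all Irf4 probe sets differed by only -0.22, which was not called (limma, adjusted p = 0.209). In unstimulated cells Irf4 was instead higher with deficiency, by 0.96 ± 0.14 in CD4 and 1.10 ± 0.17 in CD8 cells, with alternatives as low as 0.59 in each. Cd69 and Myc were lower in deficient CD8 cells (-0.91 and -0.80), calls lost in 6 and 3 of the 16 fits.

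Of 12 interferon-induced genes measured of 14 listed, 3 rose and 1 fell with stimulation in wild-type cells and 10 rose in deficient cells. Compared directly, the stimulation responses of the genotypes differed by a median of 1.27 over the 12. Only 1 of them, Usp18, was called for it (1.89 ± 0.42, adjusted p = 0.0383 in limma), against 1.2% of all genes. Between the stimulated genotypes 5 were higher in deficient cells, namely Ifit3 (1.66 ± 0.38), Usp18 (1.65 ± 0.30), Cxcl9, Oasl2 (1.17 ± 0.32) and Irf7, and none was lower. The call of Oasl2 was lost in 4 of the 16 fits with an array left out and that of Ifit3 in 1. The median of the 12 was 1.00, against 0.00 for all genes, and Cxcl9 belongs to this list as well as to the ligands. In unstimulated CD4 cells Gbp2 and Gbp3 were higher with deficiency (1.06 and 1.30), the Gbp2 call being lost in 3 of the 16 fits. None of the list was called for genotype in CD8 cells. Of 8 measured NF-kB feedback genes, 5 rose in wild-type and 6 in deficient cells, with Nfkb2 up by 2.31 and 2.45 and Relb by 2.23 and 2.28. Nfkbia and Nfkbie were higher in deficient stimulated cells (0.56 ± 0.17, adjusted p = 0.0484, and 0.44 ± 0.11, adjusted p = 0.0176). The Nfkbia call was lost in 12 of the 16 fits with an array left out (adjusted p up to 0.191) and under 9 of 11 other alternatives, and that of Nfkbie in 2 of the 16 fits.

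Of 9 effector genes, Tbx21, whose product T-bet activates Ifng, rose with stimulation (1.87 and 2.56) in both genotypes and Gzma, Fasl, Id2 and Runx3 fell in both. In stimulated cells Tbx21 (0.84 ± 0.24), Eomes (1.76 ± 0.36), Gzma (1.61 ± 0.31) and Fasl (0.82 ± 0.17) were higher in deficient cells, and Id2 was lower. The Tbx21 call was lost in 4 of the 16 fits with an array left out and that of Fasl when its probe sets were averaged (0.50, adjusted p = 0.0735 in limma). Gzma and Klrg1 were also higher in both unstimulated deficient populations, but Gzma lost its call in 10 such fits in CD8 cells and in 5 in CD4 cells, and Klrg1 in 2 in CD8 cells. Runx3 went the other way in unstimulated CD4 cells, lower with deficiency (-0.55 ± 0.10, adjusted p = 0.00186 in limma).

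NK cells and myeloid cells also make these chemokines, so their markers are set beside the differences. The mean signal of 7 NK markers was 3.86 to 4.13 on wild-type and 4.34 to 4.37 on deficient unstimulated CD4 arrays, 3.01 to 3.25 and 3.14 to 3.54 on stimulated ones, and 4.07 to 4.35 and 4.29 to 4.62 on CD8 arrays. Ncr1, Klrb1c and Klra8 lay below the table median on all 16 arrays, while Klrk1 exceeded it on 13, Gzma and Tyrobp on 14 and Prf1 on 15. Of the 7, Gzma was higher in deficient cells in all 3 conditions, though its call was lost in 5 of the 16 fits with an array left out in unstimulated CD4 cells and in 10 in CD8 cells. Prf1 was lower in unstimulated CD4 cells (-0.85, or -0.45 over averaged probe sets), a call lost in 5 of the 16 fits.

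The mean of 7 monocyte, macrophage and dendritic cell markers was 4.32 to 4.49 and 4.43 to 4.82 on wild-type and deficient unstimulated CD4 arrays, 3.51 to 3.66 and 3.86 to 4.12 on stimulated ones, and 4.33 to 4.62 and 4.30 to 4.52 on CD8 arrays. In stimulated cells 3 of the 7, Lyz2, Cd68 and Mpeg1, were higher with deficiency (calls lost in 3 of the 16 fits with an array left out for Lyz2 and 4 for Mpeg1). Lyz2, Csf1r and Cd68 exceeded the table median on all 16 arrays, Adgre1 and Mpeg1 on 15, Itgax on 3 and Cd14 on 1. The mean of 5 neutrophil genes, S100a8, S100a9, Ngp, Camp and Ltf, was higher in deficient cells of each condition, at 3.68 to 5.10 against 5.26 to 7.46 unstimulated, 3.46 to 4.19 against 5.60 to 7.26 stimulated, and 3.83 to 5.32 against 5.75 to 6.85 in CD8 cells. In stimulated CD4 cells 4 of the 5 passed the test, in unstimulated CD4 cells 1, Ngp, whose call was lost in 3 of the 16 fits, and in CD8 cells none.

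The mean of 4 B cell genes, Cd79a, Cd79b, Ms4a1 and Cd22, was 5.10 to 5.52 against 5.28 to 5.85 in unstimulated CD4 cells, 4.24 to 4.33 against 4.57 to 4.91 in stimulated cells and 5.55 to 5.75 against 5.97 to 6.14 in CD8 cells. Of the 4, only Cd79b was called for genotype, in unstimulated CD4 (0.63 ± 0.18) and CD8 cells (0.99 ± 0.21). Those calls were lost in 10 and 2 of the 16 fits with an array left out, and none of the 4 was called in stimulated cells. In unstimulated CD4 cells the NK and neutrophil means did not overlap between genotypes, nor did Ccl3 and Ccl5, all higher with deficiency. Xcl1 was lower with deficiency but was not called (-0.30 ± 0.21, adjusted p = 0.541 in limma). Its arrays were only 0.04 apart between genotypes, at signals near the table median. The mean of the CD8 genes Cd8a, Cd8b1 and Runx3 was lower too, at 7.04 to 7.17 against 7.46 to 7.96 on wild-type arrays, and its part was not tested. In stimulated CD4 cells the neutrophil, myeloid and B cell means moved with Ccl3, Ccl5 and Cxcl10 and opposite to Xcl1, and their part in the differences of either time was not tested. In CD8 cells the myeloid ranges overlapped, while the neutrophil and B cell means were higher with Ccl3, Ccl4 and Ccl5, and their part there was not tested either. Within the stimulated deficient arrays, replicate 3 had the highest neutrophil mean (7.26) and the highest Ccl3 (7.37) and Cxcl10 (10.54). Ccl4 (7.59), Ccl5 (8.59) and Xcl1 (7.02) were instead highest on replicate 1. Within the deficient CD8 arrays the higher neutrophil mean (6.85) was on replicate 2, which had the lower Ccl3 (4.35), Ccl4 (5.30) and Ccl5 (9.22).

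**Figure D5:**
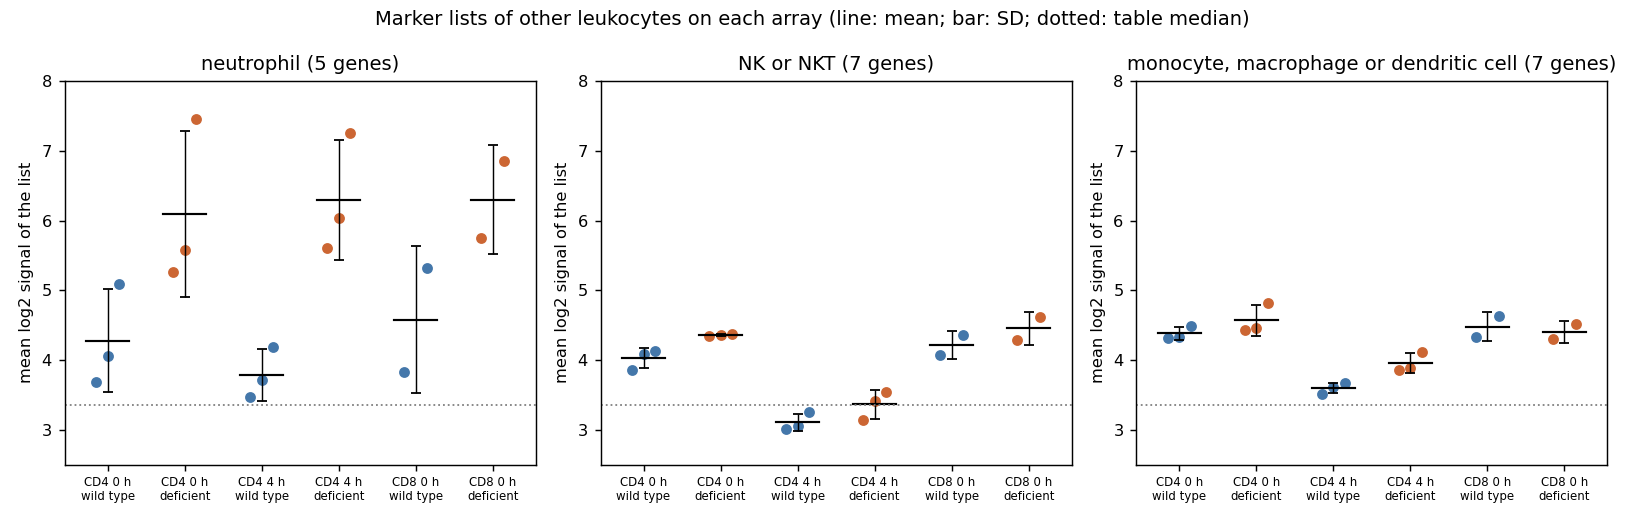
Mean log2 signal of the marker lists of other leukocytes on each array (points) in the 6 groups, with group means (lines), SD (bars) and the table median (dotted). The neutrophil list is higher in Tsc1-deficient cells of each condition, from 5.26 to 7.46 against 3.46 to 5.32 in wild-type cells, whereas the NK list stays between 3.01 and 4.62.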

How the data were processed

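The deposited values are log2 signals of single-colour Affymetrix arrays, credited to RMA in Partek 6.5 per the submitters' processing notes, and were used as deposited. No source used here gives the genome build. Of 45141 probe sets, 28898 name 1 gene, 551 several, 15588 none and 104 are controls. Each gene took its brightest probe set among those naming it alone. A model with a mean for each of 6 groups (10 residual degrees of freedom) was fitted in limma 3.58.1 (R 4.3.3), with 9 comparisons and Benjamini-Hochberg adjustment. Figures used matplotlib 3.10.9.

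The 5 genes, the gene lists and the tests were chosen with earlier results of these data known. Named genes were the 5 and their receptors, up to 4 per list and comparison by size among called genes without array overlap with the higher mean above the table median, and the 5 most correlated genes for each chemokine. Ccl8, Irf7, Id2 and others named to complete a count fall outside that rule. The fit was tested on simulated data. Alternatives were averaged or all probe sets, a dim filter, quantile or median scaling, another variance prior, array weights, a 1.5-fold threshold, the compared groups alone, omission of the 2 Gapdh arrays, of each array singly, and, added after seeing the data, a block of arrays with consecutive title numbers.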

Additional observations from a re-analysis of the deposited data

Results flagged for a closer look

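Ccl1 stood out for a difference between genotypes in its response to stimulation. Its stimulation response was 1.51 ± 0.18 in Tsc1-deficient and 0.39 ± 0.18 in wild-type CD4 cells (adjusted p = 0.132 for the latter), which differ by 1.12 ± 0.26 (adjusted p = 0.047 in limma, 3 arrays per group). Leaving out single arrays gave 0.88 to 1.26 with adjusted p from 0.0342 to 0.129, and the call was lost in 12 of these 16 fits and under 6 of 12 other alternatives.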

How the results depend on the processing

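Of 1230 alternative values for the 5 genes over 9 comparisons, 1168 kept direction and side of the threshold. The stimulation rises of Ccl3, Ccl4, Xcl1 and Cxcl10 did so in each alternative run. A 1.5-fold threshold ended the calls of Ccl3, Ccl5, Xcl1 and Cxcl10 in stimulated CD4 cells (0.86, 0.91, -0.79 and 1.46), of Ccl4 and Ccl5 in CD8 cells (1.55 and 1.33), and of Ccl3, Ccl4 and Ccl5 between deficient lineages (1.43, 1.497 and 0.97), by its construction. Fitting the compared groups alone, with fewer arrays, ended those of Ccl5 in CD8 cells (1.33) and between deficient lineages (0.97), and of Xcl1 (-0.79) and Cxcl10 (1.46) in stimulated cells, and the trended robust prior that of Cxcl10 (1.46, adjusted p = 0.0583).

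Ccl5 passed in unstimulated CD4 cells with the dim filter, array weights, the compared groups alone and without the Gapdh arrays (0.66 in each), and its wild-type stimulation difference with these (-0.52, -0.51, -0.52 and -0.52) and quantile scaling (-0.54). Array weights called Ccl3 in unstimulated CD4 cells (0.54). Omitting the Gapdh arrays called Ccl3 for the lineage difference of genotype effects (1.70) and Cxcl10 for the response difference (2.11), and turned the uncalled CD8 differences of Xcl1 (-0.20) and Cxcl10 (0.31). Quantile scaling turned the wild-type lineage difference of Xcl1 (0.0177). The cause was not tested.

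With single arrays left out, differences in stimulated CD4 cells ran from 0.69 to 1.01 for Ccl3, 0.27 to 0.74 for Ccl4, -1.06 to -0.52 for Xcl1 and 1.07 to 1.83 for Cxcl10. Ccl5 ran from 0.53 to 0.80 in unstimulated CD4 cells, 0.94 to 1.72 in CD8 cells, -0.65 to -0.38 for wild-type stimulation and 0.58 to 1.36 between deficient lineages. Uncalled values that crossed 0 were, between wild-type lineages, Ccl3 (-0.0773 to 0.191), Xcl1 (-0.0900 to 0.0727) and Cxcl10 (-0.0389 to 0.40). In CD8 cells they were Xcl1 (-0.20 to 0.39) and Cxcl10 (-0.68 to 0.31), and Cxcl10 crossed between deficient lineages (-0.27 to 0.72) and in the lineage difference of genotype effects (-0.39 to 0.60). Calls over all genes for genotype were 997 in unstimulated CD4 cells (589 without deficient replicate 1 to 1348 with single arrays left out, 1937 with array weights, 1723 without the Gapdh arrays), 1616 in stimulated CD4 cells (1062 without wild-type replicate 2 to 1794, 823 with the compared groups alone, 2564 of all probe sets) and 995 in CD8 cells (305 without wild-type replicate 1 to 1559, 269 with the compared groups alone). Those for the response difference were 206 (103 without unstimulated deficient replicate 2 to 287, 351 with array weights, 325 without the Gapdh arrays), for wild-type lineages 862 (416 without CD8 replicate 2 to 1094, 1391, 1324 and 1345 with weights, without the Gapdh arrays and over all probe sets), for deficient lineages 1142 (511 without CD8 replicate 2 to 1805) and for the lineage difference of genotype effects 20 (7 without wild-type CD8 replicate 2 to 26, 31 without the Gapdh arrays). The 1.5-fold threshold left 1 to 153 calls in these 7, and 1538 and 1938 of 5451 and 6041 for stimulation, where all probe sets gave 12112 and 13683.

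The labels give no replicate numbers, but the titles of each 0 h and 4 h CD4 array of a genotype carry consecutive numbers whose meaning is not stated. Taking these 6 couples as a replicate block was chosen after seeing the data. Deviations from group means correlated at 0.0301 to 0.0769 within couples, each above those with the other stimulated arrays of its genotype. The closest case was 0.0301 against 0.0289. Deviations within a group sum to 0, so the best match is positive by construction, and only which array it falls on can inform. That is a weak hint from the data and not the design. With the couples as a random or fixed block the wild-type stimulation difference of Ccl5 (-0.52) passed the test (adjusted p = 0.0475 and 0.0454), no other call of the 5 genes changed, and the response difference was called for 231 and 143 genes. Signals near the table median of 3.36, such as unstimulated Ccl3 and Cxcl10, limit what folds and differences between folds can show.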
